A study of Homo sapiens with 24 samples.

Results

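The 45 genes described here are interferon-stimulated genes, chosen by symbol from a list. All 45 were found among the 25559 genes of the count tables. RNA sequencing was carried out on 3 established human T-cell lines: TLOm1 (adult T-cell leukemia), PF382 (T-cell acute lymphoblastic leukemia) and HH (cutaneous T-cell lymphoma). Each line was exposed for 96 hours, with drug added every 24 hours, to azacitidine (AZA) or to decitabine, both cytidine analogs that lower DNA methylation. AZA was given at 125, 250 and 500 nM to TLOm1 and PF382 and at 50, 125 and 250 nM to HH, while all lines received decitabine at 5, 12.5 and 25 nM. There was 1 library per condition (24 in all), and each line had 2 untreated libraries. These were matched to a drug by the opening letters of the sample titles, whose meaning is not given, so that 1 served for AZA and the other for decitabine. Each line stands for 1 source of cells.

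Library totals ran between 13892514 and 32496676 counts, so that 3 counts, taken here as the limit of detection, equal 0.216 CPM (counts per M, scaled by the library total) in the smallest library. Within each line the counts of the 2 untreated libraries were further apart than sampling noise allows (chi-square per degree of freedom 25.1 to 36.2), so they are separate libraries, although the labels do not say whether they came from separate cultures. The p-values therefore measure a spread between libraries, which may not be the spread between cultures. The untreated pairs set that spread only in the comparisons of untreated cells. In the main fits of treatment each line and set has its own untreated library. There the spread comes from differences among the doses, or from departures from a straight line on dose. In the pooled fits it also comes from differences between lines in the response. The T-cell marker CD3E was found in all lines, at 33.5 to 39.9 CPM in TLOm1, 554 to 663 CPM in PF382 and 74.1 to 121 CPM in HH. TLOm1 was near 0 for CD3D (0 to 0.731 CPM) and both TLOm1 and HH were near 0 for the kinase LCK (0 to 1.34 CPM and 0 to 0.646 CPM), which PF382 carried at 510.1 to 901 CPM. All 11 listed T-cell markers summed to 1965 to 1969 CPM in TLOm1, 2309 to 2538 CPM in PF382 and 1874 to 1892 CPM in HH untreated. The collagen gene COL1A2 was at 9.16 CPM in TLOm1 at 5 nM decitabine and at no more than 0.149 CPM in every other library.

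Type I and type III interferons bind receptors that carry the kinases JAK1 and TYK2, which phosphorylate STAT2 among other substrates. STAT2 joins IRF9 in a complex that enters the nucleus and binds a short DNA element in the promoters of its targets, the interferon-stimulated response element. The targets include RNA-binding proteins, nucleases, GTPases and membrane proteins that restrict viruses, and also the factors STAT2, IRF9 and IRF7 themselves. In other tumor cells, inhibitors of DNA methylation are known to raise these genes, which is the question the members address here.

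Promoter windows of 300 bases (250 before the start site and 50 from it, RefSeq, GRCh38.p14) were available for 37 of the 45 members. The response element was searched as GAAANNGAAA on both strands, and 26 of the 37 members (70.3%) held at least 1 match, against 1195 of 27305 genes with a window (4.38%). Matches may overlap each other, and a match is a run of letters, not a tested binding site. The other 11, STAT2, IRF9, IRF1, OAS1, UBE2L6, HERC6, IFI35, XAF1, CMPK2, SAMD9L and SP110, held none in these windows, and IRF7, IFIT2, OAS2, OASL, MX2, IFITM2, USP18 and TRIM22 had no window. To show the form of the element, 1 match is printed for each of 10 members described below, of which IFI6 held 3 and MX1, IFI27, IFITM1, IFITM3, ISG15 and OAS3 held 2. Each is given with 10 bases on either side, read along the strand of its gene 5′ to 3′, with the match in capitals.
MX1 (chr21:41420559-41420588, plus strand): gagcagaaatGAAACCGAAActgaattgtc
DTX3L (chr3:122564322-122564351, plus strand): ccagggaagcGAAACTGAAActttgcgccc
IFI27 (chr14:94110618-94110647, plus strand): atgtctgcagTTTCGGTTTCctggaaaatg
IFI6 (chr1:27672288-27672317, minus strand): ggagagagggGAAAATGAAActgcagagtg
LGALS3BP (chr17:78979962-78979991, minus strand): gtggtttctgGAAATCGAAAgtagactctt
GBP1 (chr1:89065316-89065345, minus strand): aacgaagtacTTTCAGTTTCatattactct
IFITM1 (chr11:314024-314053, plus strand): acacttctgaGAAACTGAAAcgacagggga
IFITM3 (chr11:320876-320905, minus strand): aaactgttgaGAAACCGAAActactgggga
ISG15 (chr1:1013380-1013409, plus strand): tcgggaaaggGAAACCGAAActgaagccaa
OAS3 (chr12:112938321-112938350, plus strand): agaaagaaacGAAACTGAAAgcagggaatt
In IFI27 and GBP1 the match lies on the strand opposite to the gene. PARP9 and DTX3L, which start in opposite directions on chromosome 3, share the printed site: the window of PARP9 holds the same 10 bases on the other strand. The 2 letters between the repeats are CC in MX1, IFITM3 and ISG15 and CT in DTX3L, IFITM1 and OAS3. Read on the strand of the match, they are also CC in IFI27 and CT in GBP1. The member windows held a median of 8 CG pairs, against 14 over all 35116 windows, and DNA methylation was not measured here.

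At baseline the line with the highest level differed from member to member. TLOm1 had the highest untreated level for 16 members, PF382 for 23 and HH for 6, by the mean of log2(CPM + 1) over the 2 untreated libraries. The summed untreated level of the members averaged 1054 CPM in TLOm1, 1285 CPM in PF382 and 651 CPM in HH. Members below 1 CPM numbered 9 in TLOm1, 4 in PF382 and 18 in HH. Neither count was made over all genes, so they are not read as particular to the members. CPM values are not corrected for gene length, so levels are compared between libraries and not between genes.

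**Figure D1:**
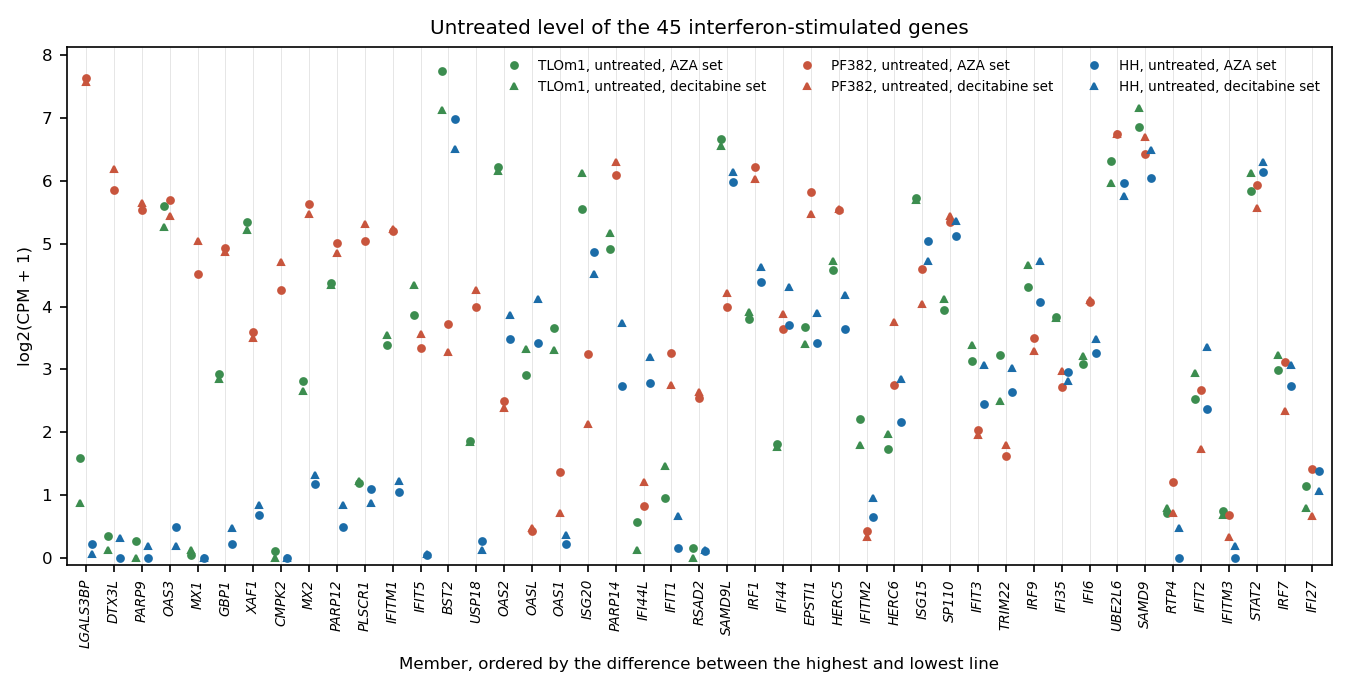
Untreated level of each of the 45 members as log2(CPM + 1) on the y axis, members on the x axis ordered by the difference between the highest and the lowest line, with circles for the AZA set and triangles for the decitabine set. At the left end LGALS3BP, DTX3L, PARP9 and MX1 sit high in PF382 and low in TLOm1 and HH, while STAT2, IRF7 and IFI27 at the right end lie close together in all lines.

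By edgeR's quasi-likelihood test on the 6 untreated libraries, 36 members differed between TLOm1 and PF382 (15 higher and 21 lower in TLOm1), 27 between TLOm1 and HH (21 higher and 6 lower in TLOm1) and 35 between PF382 and HH (23 higher and 12 lower in PF382). Most genes differed between these lines: 67.2%, 55.7% and 66.4% of all 15501 genes tested in the same 3 comparisons. The member shares of 80%, 60% and 77.8% are thus read against a high background. The median member difference was -0.44, 0.73 and 1.47 on the log2 scale in that order, with medians over all genes of -0.01, 0.01 and 0.03.

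Of the 8 widest differences between lines, 5 were in genes much higher in PF382 than in both other lines. LGALS3BP, a secreted galectin-binding glycoprotein, was at 2.03 and 0.833 CPM in TLOm1, 196 and 189.7 CPM in PF382 and 0.165 and 0.0497 CPM in HH untreated, the first value of each pair being the AZA set. MX1, a dynamin-like GTPase that traps viral nucleocapsids, was at 0.0406 and 0.0926 CPM in TLOm1, 21.8 and 32 CPM in PF382 and 0 and 0 CPM in HH. Its mean of 26.9 CPM in PF382 was at least 197-fold higher than the level of 3 counts per library in HH, where it had none. CMPK2, a nucleotide kinase encoded beside RSAD2, was at 0.0813 and 0 CPM in TLOm1, 18.1 and 25.1 CPM in PF382 and 0 and 0 CPM in HH, at least 159-fold higher in PF382 than in HH by the same limit. No library of TLOm1 or HH came above 0.0813 CPM for CMPK2 under any dose.

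PARP9, an ADP-ribosyltransferase, and DTX3L, the ubiquitin ligase it pairs with, showed the same split. PARP9 was at 0.203 and 0 CPM in TLOm1, 45.3 and 49.2 CPM in PF382 and 0 and 0.149 CPM in HH. DTX3L was at 0.284 and 0.0926 CPM in TLOm1, 56.8 and 71.9 CPM in PF382 and 0 and 0.248 CPM in HH. Both differed between TLOm1 and PF382, by -8.53 ± 0.53 (adjusted p = 1.11e-06) for PARP9 and -8.15 ± 0.44 (adjusted p = 3.55e-07) for DTX3L (log2 ± SE), and neither differed between TLOm1 and HH past the threshold (adjusted p = 0.74 and 0.58).

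Another 3 of the 8 widest differences set HH apart from both other lines. OAS3, which makes the oligoadenylates that activate RNase L, was at 47.3 and 37.5 CPM in TLOm1, 50.8 and 42.2 CPM in PF382 and 0.411 and 0.149 CPM in HH. GBP1, a guanylate-binding GTPase, was at 6.58 and 6.2 CPM in TLOm1, 29.3 and 28.3 CPM in PF382 and 0.165 and 0.398 CPM in HH. XAF1, a proapoptotic binding partner of XIAP, was at 39.5 and 36 CPM in TLOm1, 11.1 and 10.3 CPM in PF382 and 0.617 and 0.795 CPM in HH. OAS3 differed little between TLOm1 and PF382 (0.03 ± 0.15, adjusted p = 0.88), whereas XAF1 was higher (1.98 ± 0.18, adjusted p = 2.82e-06) and GBP1 lower (-2.01 ± 0.23, adjusted p = 1.63e-05) in TLOm1.

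The highest untreated CPM over the 6 libraries belonged to SAMD9, BST2, UBE2L6 and LGALS3BP. SAMD9, a cytoplasmic restriction factor, was at 115 and 141 CPM in TLOm1, 85 and 102 CPM in PF382 and 64.6 and 88.6 CPM in HH. BST2, which tethers virions to the cell surface, was at 212 and 139 CPM in TLOm1, 12.2 and 8.73 CPM in PF382 and 126 and 89.3 CPM in HH and was the 1 member called between the AZA set and the decitabine set (0.56 ± 0.09, adjusted p = 0.01, higher in the AZA set), where 10.6% of all genes were called. UBE2L6, the conjugating enzyme for ISG15, was at 78.5 and 61.2 CPM in TLOm1, 106 and 106 CPM in PF382 and 61.5 and 53 CPM in HH. The count between sets was 0 without either HH library, 6 without the PF382 library of the AZA set and 3 without any of the others.

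Treatment was tested in several ways, with each drug set against the untreated libraries of its own set. In bulk RNA, more cells that express a gene and more RNA per cell cannot be told apart. Pooled over lines and doses, AZA raised 1 member, OAS3, by 0.78 ± 0.14 (adjusted p = 0.028), higher in 9 of 9 treated libraries, and 0.755% of all 16554 genes tested rose. Decitabine called 0 members in the pooled test by edgeR and 0% of 16354 genes, with 6 members higher at an unadjusted p under 0.05 against 9.75% of all genes, and 1 member by DESeq2, against 2.82% of genes. The median pooled difference of the members was 0.31 for AZA and 0.23 for decitabine, against 0.02 and 0.03 over all genes. With both untreated libraries of a line as controls the pooled AZA count was 11, where 3123 of all 15877 genes were called. The pooled AZA count was 0 without untreated HH, HH at 125 nM, PF382 at 250 nM, untreated TLOm1 or TLOm1 at 250 nM, each left out in turn. It was 2 without untreated PF382, PF382 at 125 nM or TLOm1 at 125 nM, where 217, 139 and 202 genes were called.

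The slope on dose rank (0 for untreated, then 1, 2 and 3) called more. With AZA 18 members rose and 1 fell, against 12% of 16107 genes rising and 9.39% falling. With decitabine 10 members rose and 1 fell, against 8.6% of 15892 genes rising and 5.38% falling. The member that fell was UBE2L6 in both. The 6 members with the smallest adjusted p for AZA were IFITM3 (0.95 ± 0.12, adjusted p = 0.00036), IFI35 (0.26 ± 0.04, adjusted p = 0.00078), IRF7 (0.43 ± 0.07, adjusted p = 0.0015), IFI6 (0.34 ± 0.06, adjusted p = 0.0026), PARP12 (0.27 ± 0.05, adjusted p = 0.0028) and HERC6 (0.36 ± 0.07, adjusted p = 0.0031), in log2 per dose rank ± SE, and each was above its untreated library in 9 of 9 treated libraries. Those for decitabine were MX2 (0.35 ± 0.07, adjusted p = 0.0054), IFITM2 (0.67 ± 0.15, adjusted p = 0.012), IFITM3 (0.71 ± 0.17, adjusted p = 0.013), HERC5 (0.17 ± 0.04, adjusted p = 0.017), XAF1 (0.24 ± 0.06, adjusted p = 0.019) and IFIT3 (0.18 ± 0.05, adjusted p = 0.021). Without the untreated TLOm1 library of the AZA set the AZA count was 10, and the decitabine count was 5 without HH at 25 nM, 5 without untreated PF382 and 7 without HH at 12.5 nM.

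Among treated libraries alone, the slope on log2 dose called 10 members for AZA, all rising, against 8.04% of 16450 genes rising. IFITM3 led with 0.78 ± 0.15 (adjusted p = 0.009) per doubling of dose, followed by PARP14 with 0.39 ± 0.08 (adjusted p = 0.011), and IRF1 was among the 10 with 0.18 ± 0.04 (adjusted p = 0.023). For decitabine it called EPSTI1 only (0.19 ± 0.04, adjusted p = 0.015), against 2.6% of 16248 genes rising. The AZA count was 2 without TLOm1 at 125 nM, 5 without TLOm1 at 500 nM, 5 without PF382 at 250 nM and 6 without HH at 125 nM. The decitabine count was 0 without HH or PF382 at 5 nM, 2 without HH at 25 nM and 3 without TLOm1 at 5 or 25 nM.

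**Figure D2:**
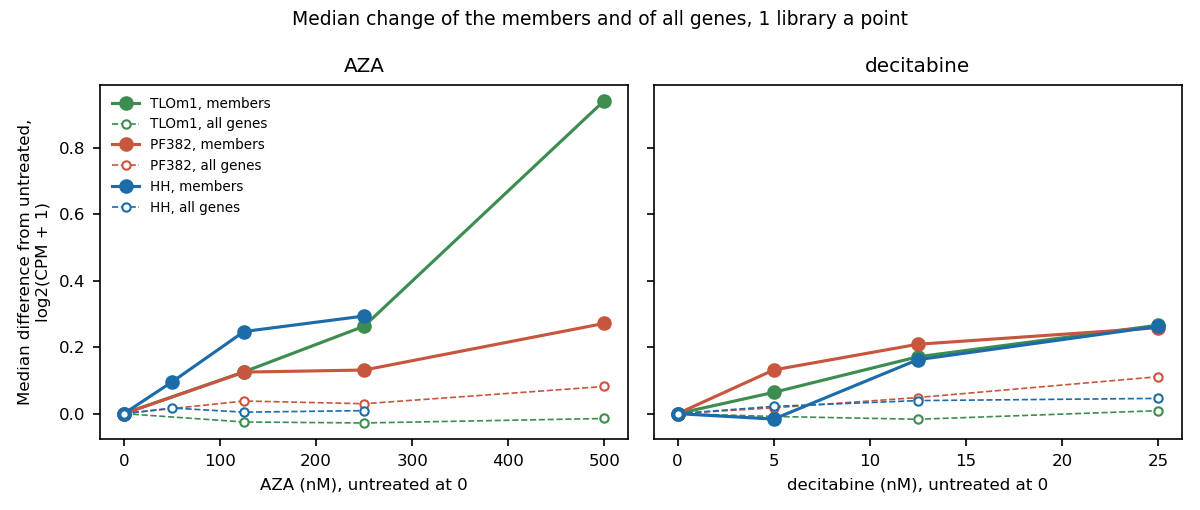
Median difference in log2(CPM + 1) from the untreated library of the same line and set (y axis) by dose in nM (x axis), over the members (filled points, solid lines) and over all genes at 1 CPM or more (open points, dashed lines), 1 library a point. The members lie at 0.94 in TLOm1 at 500 nM AZA, against 0.27 in PF382 at the same dose, and between 0.26 and 0.27 in all lines at 25 nM decitabine.

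TLOm1 carried the largest rise with AZA, and most of it came at the highest dose, which HH did not receive. At 125, 250 and 500 nM AZA, 7 of 39, 10 of 41 and 29 of 43 members detected at 1 CPM or more stood at least 1.5-fold above untreated TLOm1 on the CPM + 1 scale, against 3.9%, 8.07% and 13.3% of all genes. PF382 at 500 nM had 10 of 43 members that far above untreated, against 11.8% of genes, and HH at 250 nM had 13 of 31, against 9.48%. All lines received 125 and 250 nM. At these doses the median member difference was 0.126 and 0.26 in TLOm1, 0.125 and 0.13 in PF382 and 0.247 and 0.29 in HH. HH had the highest median at both. HH did not receive 500 nM, so its level at the dose where TLOm1 stood apart was not measured.

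At 25 nM decitabine the lines were closer. There were 9 of 41 members at least 1.5-fold above untreated in TLOm1, 12 of 42 in PF382 and 11 of 32 in HH, against 5.96%, 20.2% and 8.56% of all genes. These are differences between single libraries, with no replicate. The summed level of the members was 1475 CPM in TLOm1 at 500 nM AZA, against 1071 CPM untreated, and 1133 CPM at 25 nM decitabine, against 1037 CPM untreated.

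**Figure D3:**
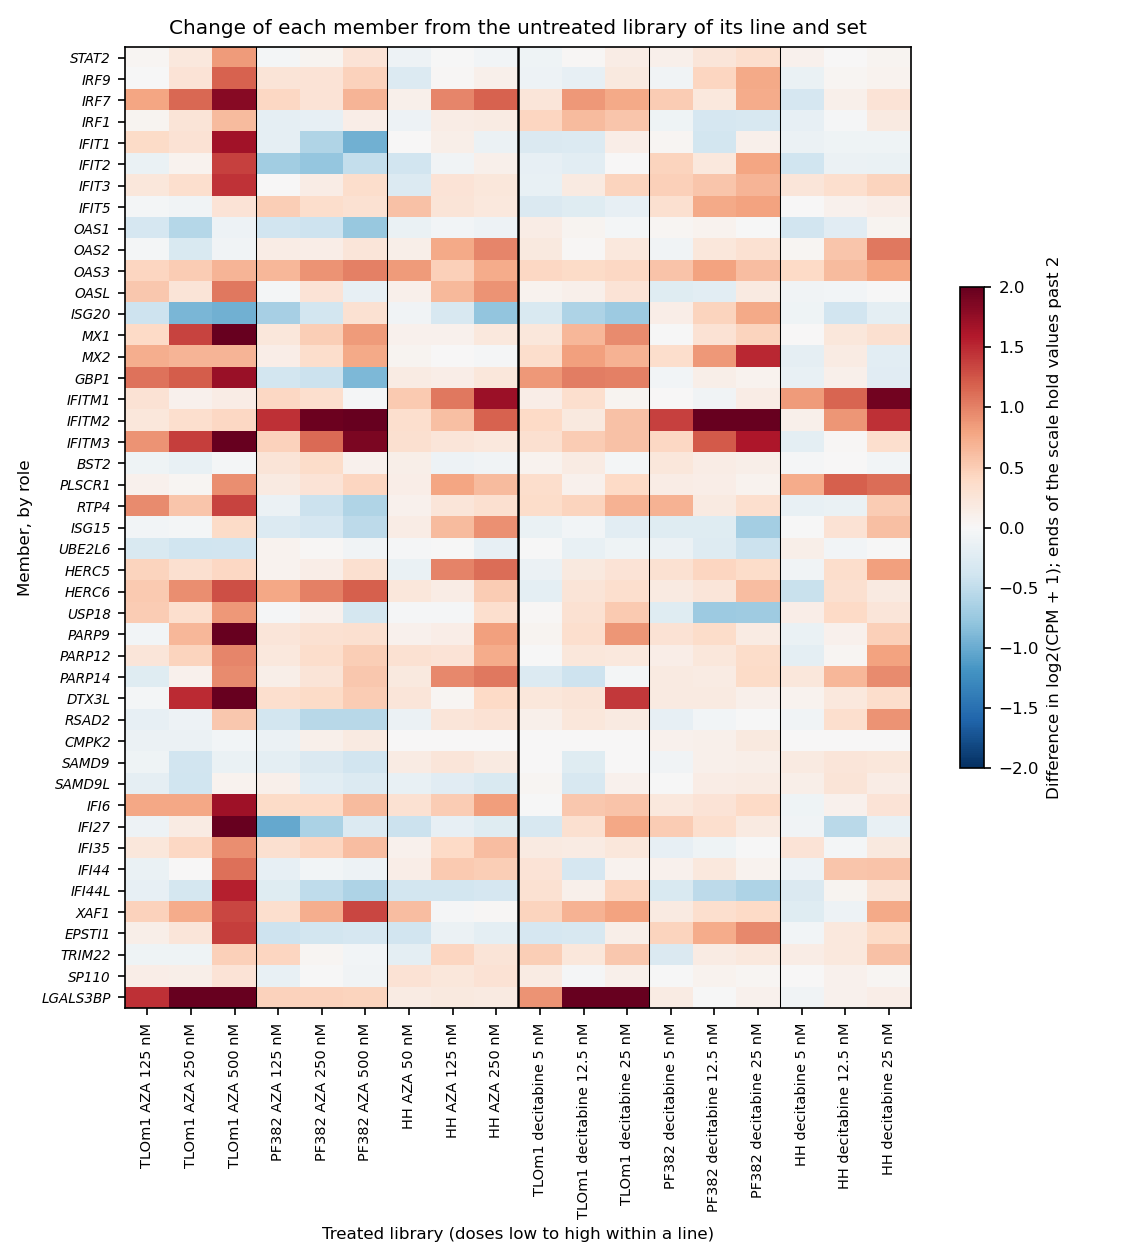
Difference in log2(CPM + 1) of each of the 45 members (rows, grouped by role) from the untreated library of the same line and set, for the 18 treated libraries (columns). Red is higher and blue lower than untreated. The column of TLOm1 at 500 nM AZA is red for most members, IFITM2 and IFITM3 are red in PF382 under both drugs, and LGALS3BP is redder in TLOm1 than in the other lines, at 2.89 with 500 nM AZA.

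The slopes on dose rank within each line were fitted on all 24 libraries with a block for each line and set. With AZA, 28 members rose and 2 fell in TLOm1, against 15.3% of 17190 genes rising and 13.9% falling. In PF382, 8 rose and 4 fell, against 9.24% and 6.56%. In HH, 12 rose and 1 fell, against 10.5% and 7.25%. The median member slope was 0.32 in TLOm1, 0.06 in PF382 and 0.20 in HH, with medians over all genes within 0.01 of 0. Without the 500 nM library, 14 members were called in TLOm1 (11 higher and 3 lower), of which 12 had been called with it, and 11.5% of all genes were called. These 12 were DTX3L, GBP1, HERC6, IFI6, IFITM3, IRF7, LGALS3BP, MX1, PARP9, XAF1, ISG20 and UBE2L6, and the other 18, STAT2 and IRF9 among them, were not called without that library.

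With decitabine, 6 members rose and 0 fell in TLOm1, against 3.47% of genes rising and 1.15% falling. In PF382, 6 rose and 4 fell, against 15.4% and 9.83%, so that the rising share of members did not exceed that of all genes. In HH, 10 rose and 0 fell, against 5.45% and 2.95%. At an unadjusted p under 0.05, 1 member was lower in TLOm1 and 0 in HH. In either direction 3273 and 3834 of all 17190 genes had such a p. Single libraries moved these counts: 1 member was called in HH without 25 nM, 5 without untreated and 6 without 5 nM, in PF382 3 without untreated and 4 without 25 nM, and in TLOm1 2 without untreated of the same set and 10 without untreated of the AZA set or without 500 nM AZA, which enter the shared estimate of the spread. The AZA counts became 6 in HH without untreated or without 250 nM, and 3 and 4 in PF382 without untreated and without 500 nM.

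**Figure D4:**
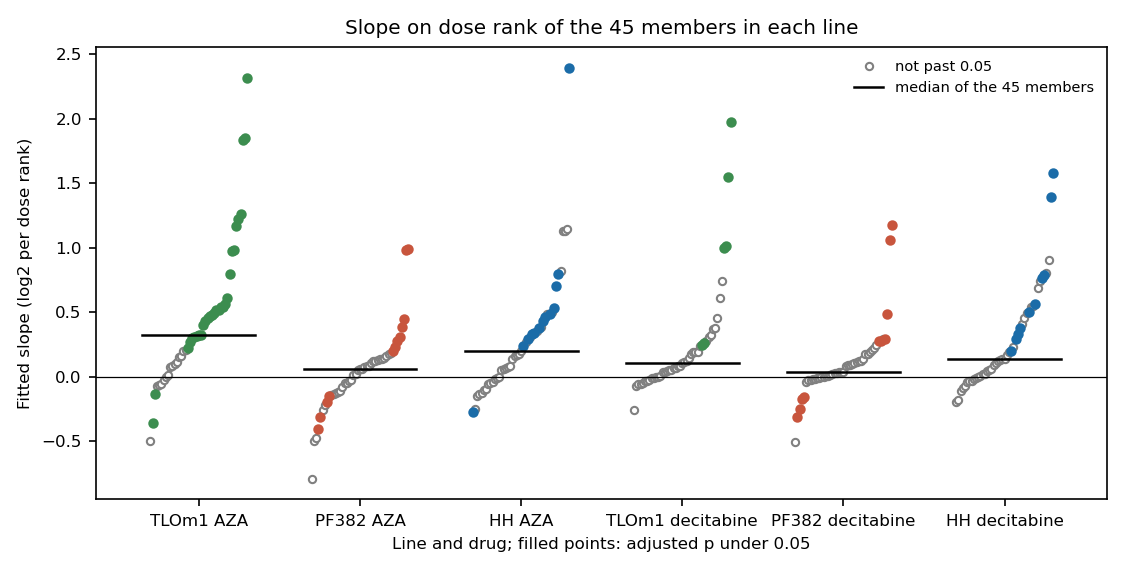
Fitted slope on dose rank (y axis, log2 per rank) of the 45 members in each line and drug (x axis), ordered by slope within each group, with filled points past an adjusted p of 0.05 and a bar at the median. TLOm1 with AZA has the highest median, 0.32, and 30 filled points. The topmost point of HH with AZA is PARP9, which stayed at or below 0.766 CPM.

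The mean of the 3 doses against untreated called fewer members within lines, each against 1 untreated library. Its error comes from the spread among the 3 doses, so a climb with dose counts as error, as it also does in the pooled effect. A member that is not called here may therefore still rise with dose. OAS3 rose in PF382 with AZA (0.84 ± 0.16, adjusted p = 0.018), where 0.83% of 17841 genes were called, and GBP1 rose in TLOm1 with AZA (1.503 ± 0.28, adjusted p = 0.025), where 0.998% were called. No member was called by edgeR in HH with AZA, in HH with decitabine, in PF382 with decitabine or in TLOm1 with decitabine, where 0%, 0%, 0.258% and 0% of genes were called. In that order 8, 3, 6 and 4 members had an unadjusted p under 0.05, against 11%, 7.74%, 14.1% and 8.26% of all genes. DESeq2 called 1, 1, 2 and 1 members, against 1.52%, 0.269%, 2.47% and 0.532% of genes. Without 125 nM, 8 members were called in TLOm1 with AZA, where 1108 of 17834 genes were called. In PF382 with AZA the count was 0 without 250 nM or without 500 nM.

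STAT2 and IRF9, which belong to the complex that binds the response element, both rose with AZA in TLOm1. In TLOm1, STAT2 was at 56.4 CPM untreated and 57.8, 65.7 and 102 CPM over the AZA doses, and at 68.5 CPM untreated and 64.6, 69.8 and 76.1 CPM over the decitabine doses. Its slope with AZA was 0.27 ± 0.04 (adjusted p = 2.29e-05), while STAT2 ran from 46.4 to 72.3 CPM in PF382 and from 64.6 to 83 CPM in HH with no call. In TLOm1, IRF9 was at 18.9 CPM untreated and 18.8, 23.1 and 44 CPM over the AZA doses, and at 24.2 CPM untreated and 22.4, 21.5 and 28 CPM over the decitabine doses. The AZA slope of IRF9 in TLOm1 was 0.40 ± 0.07 (adjusted p = 9.37e-05), and its level at 500 nM was above every other library of the series. In PF382, IRF9 was at 10.3 CPM untreated and 12.6, 12.7 and 14.7 CPM over the AZA doses, and at 8.8 CPM untreated and 8.38, 12.2 and 15.6 CPM over the decitabine doses. There it rose with decitabine (0.28 ± 0.08, adjusted p = 0.019), and HH held IRF9 at 12.9 to 26.7 CPM.

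IRF7, which amplifies interferon-alpha production, rose with AZA in TLOm1 and HH. In TLOm1, IRF7 was at 6.95 CPM untreated and 12.8, 16.5 and 27.1 CPM over the AZA doses, and at 8.42 CPM untreated and 10.2, 16.1 and 14.9 CPM over the decitabine doses. In HH, IRF7 was at 5.68 CPM untreated and 6.18, 12.2 and 14.2 CPM over the AZA doses, and at 7.36 CPM untreated and 5.63, 7.93 and 9.15 CPM over the decitabine doses. The AZA slopes were 0.61 ± 0.09 (adjusted p = 1.97e-05) in TLOm1 and 0.49 ± 0.09 (adjusted p = 0.00065) in HH, and the highest AZA dose was the highest library of each. In PF382, IRF7 was at 7.64 CPM untreated and 10.5, 9.38 and 12.8 CPM over the AZA doses. Under decitabine it was at 4.04 CPM untreated and 6.2, 4.82 and 7.41 CPM there, and neither slope was called. IRF1, a factor best known as a target of interferon gamma, moved in opposite directions. In TLOm1, IRF1 was at 12.9 CPM untreated and 13.5, 15.7 and 20.7 CPM over the AZA doses, and at 14.1 CPM untreated and 19.4, 22.6 and 21.3 CPM over the decitabine doses. In PF382, IRF1 was at 73.3 CPM untreated and 64.8, 65 and 80.2 CPM over the AZA doses, and at 64 CPM untreated and 60.3, 50.4 and 50.8 CPM over the decitabine doses. It rose with AZA in TLOm1 (0.22 ± 0.06, adjusted p = 0.0061) and fell with decitabine in PF382 (-0.15 ± 0.05, adjusted p = 0.036), and in HH it ran from 18.4 to 26.8 CPM.

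The IFIT proteins bind foreign RNA and block its translation. IFIT1, IFIT2 and IFIT3 rose with AZA in TLOm1, and none of these 3 was called without the 500 nM library. In TLOm1, IFIT3 was at 7.76 CPM untreated and 9.25, 10.1 and 22.7 CPM over the AZA doses, and at 9.49 CPM untreated and 8.48, 10.9 and 13.3 CPM over the decitabine doses. Its AZA slope was 0.49 ± 0.08 (adjusted p = 9.34e-05), and IFIT3 was at 2.87 to 5.18 CPM in PF382 and 3.52 to 10.4 CPM in HH. IFIT1 and IFIT2 in TLOm1 were at 0.935 to 1.52 CPM and 4.23 to 5.05 CPM in the other libraries of the AZA set and at 5.22 and 13.8 CPM at 500 nM. In PF382 IFIT1 fell with AZA, with 8.6 CPM untreated and 7.44, 5.31 and 3.95 CPM over the doses. IFIT5 rose in PF382 with decitabine (0.27 ± 0.09, adjusted p = 0.029).

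OAS3 stood above untreated in all 18 treated libraries. In TLOm1, OAS3 was at 47.3 CPM untreated and 64.1, 67.4 and 76.7 CPM over the AZA doses, and at 37.5 CPM untreated and 50.4, 49.4 and 50.5 CPM over the decitabine doses. In PF382, OAS3 was at 50.8 CPM untreated and 80.7, 95.7 and 103 CPM over the AZA doses, and at 42.2 CPM untreated and 63.2, 74.1 and 65.4 CPM over the decitabine doses. Only the PF382 slope with AZA passed the threshold (0.31 ± 0.08, adjusted p = 0.017), and HH stayed at 0.149 to 1.55 CPM. OAS2, another oligoadenylate synthetase, was called in HH and in no other line. In HH, OAS2 was at 10.2 CPM untreated and 11.1, 17.8 and 21 CPM over the AZA doses, and at 13.6 CPM untreated and 14.1, 20.4 and 29.5 CPM over the decitabine doses. The HH slopes were 0.38 ± 0.06 (adjusted p = 5.51e-05) for AZA and 0.38 ± 0.06 (adjusted p = 8.43e-05) for decitabine, and OAS2 was at 58.8 to 81.1 CPM in TLOm1 and 3.96 to 5.62 CPM in PF382. OASL, which lacks synthetase activity, rose with AZA in TLOm1 and HH. OAS1 had no call in any line, and ISG20, an exonuclease, fell with AZA in TLOm1 (-0.36 ± 0.08, adjusted p = 0.0019) and HH (-0.27 ± 0.08, adjusted p = 0.029).

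MX1, near 0 in TLOm1 at baseline, appeared there with dose under both drugs. In TLOm1, MX1 was at 0.0406 CPM untreated and 0.37, 1.64 and 8.4 CPM over the AZA doses, and at 0.0926 CPM untreated and 0.285, 0.738 and 1.1 CPM over the decitabine doses. The level at 500 nM AZA was 207 times that of the untreated library (exact 95% interval 36.7 to 8205, covering counting error only), from 198 counts against 1. The slopes were 2.31 ± 0.12 (adjusted p = 1.15e-11) and 1.01 ± 0.17 (adjusted p = 0.0013). In PF382, MX1 was at 21.8 CPM untreated and 25.7, 31.1 and 40.3 CPM over the AZA doses, and at 32 CPM untreated and 31.9, 39.5 and 44.1 CPM over the decitabine doses. There the AZA slope was 0.28 ± 0.06 (adjusted p = 0.0021), and HH stayed at 0 to 0.249 CPM, where MX1 was nevertheless called with decitabine (1.58 ± 0.44, adjusted p = 0.037) at or near the limit of detection.

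MX2, the nuclear-pore relative of MX1, rose in PF382. In PF382, MX2 was at 48.4 CPM untreated and 53.3, 61.7 and 82.6 CPM over the AZA doses, and at 43.2 CPM untreated and 55.6, 79.9 and 125 CPM over the decitabine doses. Its slopes were 0.23 ± 0.06 (adjusted p = 0.0096) for AZA and 0.49 ± 0.06 (adjusted p = 6.40e-06) for decitabine, and MX2 ran from 1.14 to 1.79 CPM in HH. In TLOm1, MX2 was at 6.01 CPM untreated and 10.6, 10.2 and 10.2 CPM over the AZA doses. Under decitabine it was at 5.28 CPM untreated and 7.02, 10 and 9.15 CPM there. Neither TLOm1 slope was called, although the AZA slope was called without the 500 nM library. By edgeR's test of equal slopes, the lines did not differ past the threshold (adjusted p = 0.51 with AZA and 0.053 with decitabine). GBP1 went opposite ways in TLOm1 and PF382 under AZA. In TLOm1, GBP1 was at 6.58 CPM untreated and 15.1, 16.6 and 24 CPM over the AZA doses, and at 6.2 CPM untreated and 12.1, 13.6 and 13.5 CPM over the decitabine doses. In PF382, GBP1 was at 29.3 CPM untreated and 22.6, 21.5 and 15.2 CPM over the AZA doses, and at 28.3 CPM untreated and 27.3, 30.7 and 29.8 CPM over the decitabine doses. The AZA slopes were 0.54 ± 0.09 (adjusted p = 0.00013) in TLOm1 and -0.31 ± 0.08 (adjusted p = 0.015) in PF382, and the difference TLOm1 minus PF382 was 0.85 ± 0.12 (adjusted p = 0.00012). In TLOm1 the lowest dose of either drug already stood well above untreated.

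The IFITM proteins, encoded side by side on chromosome 11, block the fusion of viruses with membranes. They are close copies of each other, so how the counting divided shared reads among them is uncertain. In HH, IFITM1 was at 1.07 CPM untreated and 1.98, 3.29 and 5.77 CPM over the AZA doses, and at 1.34 CPM untreated and 3.23, 4.25 and 7.95 CPM over the decitabine doses. IFITM1 rose in HH and was called in no other line, with slopes of 0.80 ± 0.11 (adjusted p = 1.87e-05) and 0.76 ± 0.10 (adjusted p = 3.85e-05), and ran from 9.43 to 13.8 CPM in TLOm1 and 35 to 48 CPM in PF382. In PF382, IFITM2 was at 0.349 CPM untreated and 2.7, 4.25 and 6.14 CPM over the AZA doses, and at 0.261 CPM untreated and 2.24, 4.48 and 7.56 CPM over the decitabine doses. In HH, IFITM2 was at 0.576 CPM untreated and 0.989, 1.38 and 2.58 CPM over the AZA doses, and at 0.944 CPM untreated and 1.09, 2.57 and 4.37 CPM over the decitabine doses. IFITM2 rose in both lines under both drugs, with PF382 slopes of 0.99 ± 0.17 (adjusted p = 0.00038) and 1.17 ± 0.19 (adjusted p = 0.00012) and HH slopes of 0.70 ± 0.20 (adjusted p = 0.015) and 0.79 ± 0.18 (adjusted p = 0.0077). TLOm1 held IFITM2 at 2.5 to 5.13 CPM with no call.

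IFITM3 rose in TLOm1 with AZA and in PF382 with both drugs. In TLOm1, IFITM3 was at 0.691 CPM untreated and 2.14, 3.41 and 6.49 CPM over the AZA doses, and at 0.602 CPM untreated and 0.998, 1.28 and 1.4 CPM over the decitabine doses. In PF382, IFITM3 was at 0.611 CPM untreated and 1.21, 2.55 and 4.95 CPM over the AZA doses, and at 0.261 CPM untreated and 0.689, 1.94 and 2.88 CPM over the decitabine doses. The slopes were 0.98 ± 0.16 (adjusted p = 9.08e-05) in TLOm1, and 0.99 ± 0.17 (adjusted p = 0.00027) and 1.06 ± 0.22 (adjusted p = 0.0011) in PF382 with AZA and decitabine. HH stayed at or below 0.447 CPM. Among the other membrane proteins BST2 had no call in any line, PLSCR1, a scramblase, rose in TLOm1 with AZA and in HH with decitabine, and RTP4, a receptor transport protein, rose in TLOm1 with AZA.

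**Figure D5:**
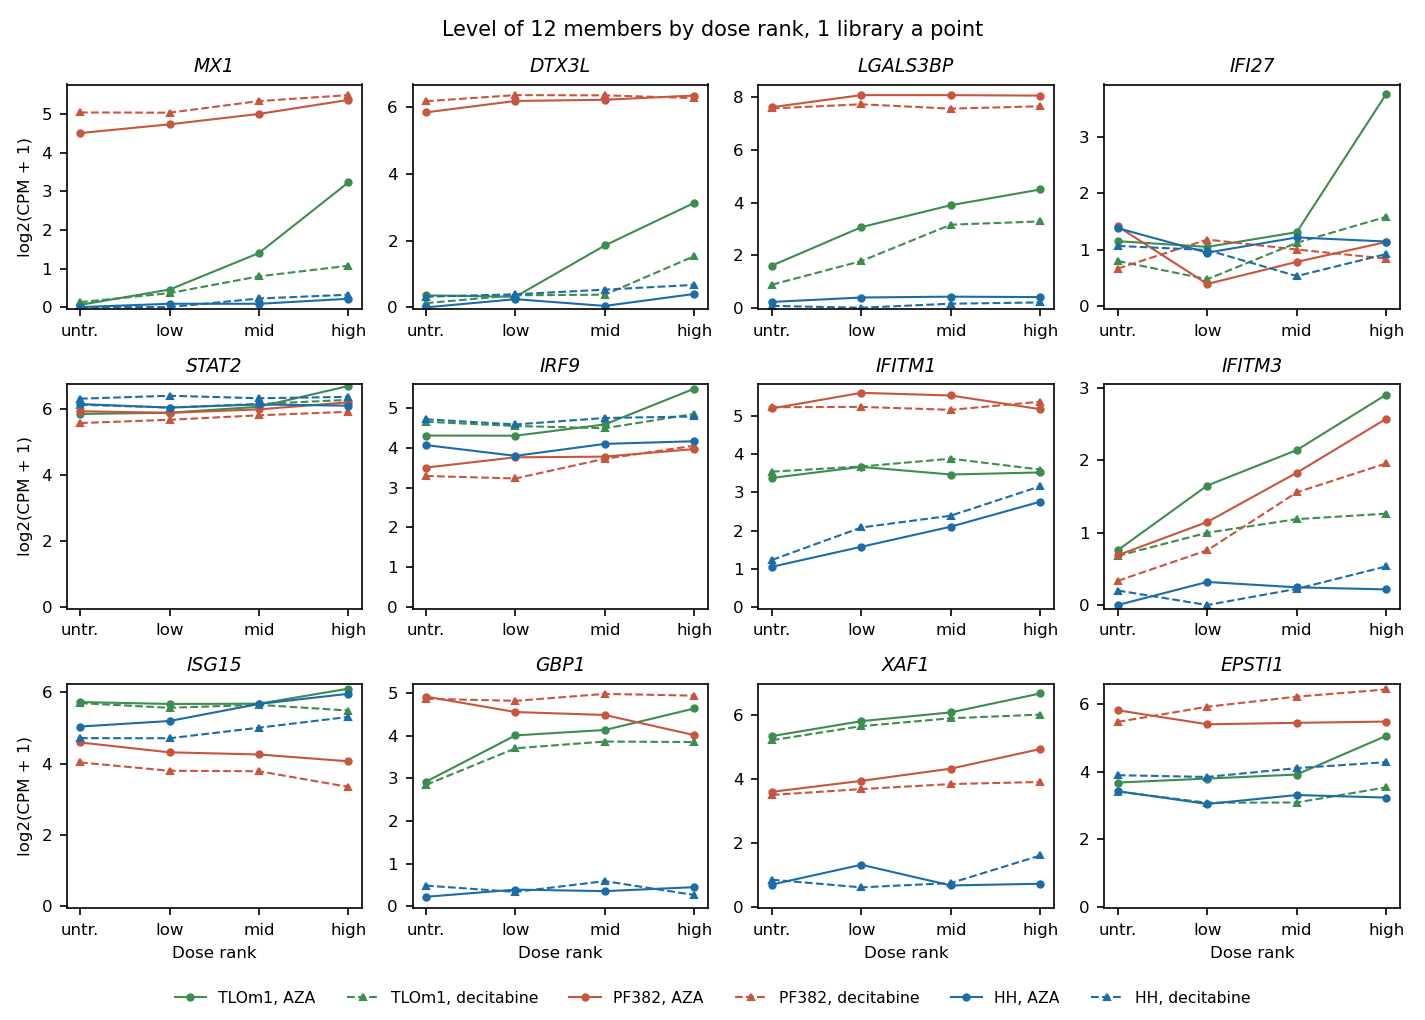
Level of 12 members as log2(CPM + 1) (y axis) by dose rank (x axis, untreated and the low, middle and high dose of each line) in TLOm1 (green), PF382 (red) and HH (blue), with solid lines for AZA and dashed lines for decitabine and 1 library a point. MX1, DTX3L, LGALS3BP and IFI27 climb in TLOm1, IFITM1 climbs in HH, IFITM3 climbs in TLOm1 and PF382, and ISG15 declines in PF382 and climbs in HH.

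ISG15, a ubiquitin-like protein that is attached to other proteins after interferon, fell in PF382 and rose in HH under both drugs. In PF382, ISG15 was at 23.2 CPM untreated and 19, 18.2 and 15.8 CPM over the AZA doses, and at 15.4 CPM untreated and 13, 12.8 and 9.21 CPM over the decitabine doses. In HH, ISG15 was at 32 CPM untreated and 35.7, 50.2 and 61.4 CPM over the AZA doses, and at 25.3 CPM untreated and 25.3, 31.3 and 38.8 CPM over the decitabine doses. The PF382 slopes were -0.19 ± 0.05 (adjusted p = 0.013) and -0.24 ± 0.06 (adjusted p = 0.0063), and the HH slopes 0.33 ± 0.05 (adjusted p = 2.61e-05) and 0.20 ± 0.05 (adjusted p = 0.012). All 6 treated PF382 libraries lay below their untreated library, and TLOm1 ran from 44 to 67.9 CPM with no call. The untreated PF382 library of the decitabine set, at 15.4 CPM, lay below every AZA dose in PF382.

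HERC5, the main ligase for ISG15, also rose in HH. In HH, HERC5 was at 11.5 CPM untreated and 10.4, 23.9 and 26 CPM over the AZA doses, and at 17.1 CPM untreated and 16.2, 22.1 and 31 CPM over the decitabine doses. Its slopes were 0.46 ± 0.09 (adjusted p = 0.00096) and 0.29 ± 0.08 (adjusted p = 0.037), and it ran from 22.8 to 31.3 CPM in TLOm1 and 45.4 to 62.6 CPM in PF382. HERC6, its relative, rose with AZA in TLOm1 and PF382. In TLOm1, HERC6 was at 2.32 CPM untreated and 3.74, 5.33 and 7.08 CPM over the AZA doses, and at 2.92 CPM untreated and 2.42, 3.69 and 3.94 CPM over the decitabine doses. In PF382, HERC6 was at 5.72 CPM untreated and 10.5, 12.6 and 14.4 CPM over the AZA doses, and at 12.4 CPM untreated and 14.2, 15 and 19.6 CPM over the decitabine doses. The AZA slopes were 0.52 ± 0.10 (adjusted p = 0.00058) and 0.39 ± 0.09 (adjusted p = 0.0051), with HH at 3.5 to 8.04 CPM. The other untreated PF382 library, at 12.4 CPM for HERC6, lay within the range of the AZA doses. UBE2L6 fell in TLOm1 with AZA (-0.13 ± 0.03, adjusted p = 0.0048) and in PF382 with decitabine (-0.17 ± 0.03, adjusted p = 0.0009), where it was at 106 CPM untreated and 97.7, 89.1 and 78.7 CPM over the doses. USP18, which removes ISG15 and dampens the receptor, fell in PF382 with decitabine (-0.31 ± 0.09, adjusted p = 0.012) and rose in TLOm1 with AZA (0.30 ± 0.10, adjusted p = 0.026).

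PARP9 and DTX3L, the pair that shares the site on chromosome 3, appeared together in TLOm1. In TLOm1, PARP9 was at 0.203 CPM untreated and 0.164, 0.903 and 4.16 CPM over the AZA doses, and at 0 CPM untreated and 0.0356, 0.269 and 0.847 CPM over the decitabine doses. In TLOm1, DTX3L was at 0.284 CPM untreated and 0.247, 2.63 and 7.81 CPM over the AZA doses, and at 0.0926 CPM untreated and 0.285, 0.302 and 1.91 CPM over the decitabine doses. At 500 nM AZA, 98 counts of PARP9 stood against 5 untreated and 184 counts of DTX3L against 7, ratios of 20.5 (exact 95% interval 8.48 to 64.4) and 27.4 (13.1 to 69.2). The AZA slopes were 1.85 ± 0.17 (adjusted p = 4.91e-08) and 1.84 ± 0.15 (adjusted p = 3.51e-08), and the decitabine slopes 1.97 ± 0.34 (adjusted p = 0.0016) and 1.55 ± 0.26 (adjusted p = 0.0017). PF382 held them at 45.3 to 63.4 CPM and 56.8 to 81.7 CPM with no call, many times the highest TLOm1 level. In HH, PARP9 was called with AZA (2.40 ± 0.43, adjusted p = 0.00036) at 0, 0.0618, 0.0923 and 0.766 CPM over the untreated library and the 3 doses, the first 3 at or below the limit of detection.

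PARP12 and PARP14, mono-ADP-ribosyltransferases, rose in TLOm1 with AZA and in HH with both drugs. In TLOm1, PARP14 was at 29 CPM untreated and 24.4, 30.9 and 56.6 CPM over the AZA doses, and at 35 CPM untreated and 28.7, 26.1 and 33.9 CPM over the decitabine doses. In HH, PARP14 was at 5.68 CPM untreated and 6.68, 12 and 12.9 CPM over the AZA doses, and at 12.3 CPM untreated and 14.5, 20.1 and 24.6 CPM over the decitabine doses. The PARP14 slopes were 0.33 ± 0.08 (adjusted p = 0.0037) in TLOm1, and 0.43 ± 0.10 (adjusted p = 0.0069) and 0.33 ± 0.09 (adjusted p = 0.03) in HH. The untreated HH library of the decitabine set, at 12.3 CPM for PARP14, lay within the range of the AZA doses. In TLOm1, PARP12 was at 19.6 CPM untreated and 23.4, 27 and 39.6 CPM over the AZA doses, and at 19.2 CPM untreated and 19.1, 22.6 and 22.3 CPM over the decitabine doses. Its AZA slope there was 0.32 ± 0.05 (adjusted p = 7.95e-05). PARP12 in HH was low, at 0.411 to 2.14 CPM, and rose with slopes of 0.53 ± 0.15 (adjusted p = 0.014) and 0.56 ± 0.14 (adjusted p = 0.012). In PF382, PARP12 was at 31.2 CPM untreated and 36.1, 40.3 and 44.3 CPM over the AZA doses. Under decitabine it was at 27.9 CPM untreated and 30.8, 32.8 and 36.4 CPM. PARP14 there went from 67.1 CPM untreated to 98.3 CPM at 500 nM AZA, and from 77.5 to 101 CPM at 25 nM decitabine. Neither was called in PF382. By edgeR's test of equal slopes with AZA, the lines did not differ past the threshold (adjusted p = 0.084 for PARP12 and 0.25 for PARP14).

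RSAD2 (viperin), an enzyme that makes a chain-terminating nucleotide, stayed at or below 0.636 CPM in TLOm1 and at or below 1.04 CPM in HH, although it was called with AZA in TLOm1 and with decitabine in HH (1.39 ± 0.36, adjusted p = 0.016). The TLOm1 slope of 1.26 ± 0.41 (adjusted p = 0.024) became -1.04 without the 500 nM library and 3.68 without the untreated library. SAMD9 fell in PF382 with AZA (-0.15 ± 0.04, adjusted p = 0.018), at 85 CPM untreated and 74.4, 69.6 and 65 CPM over the doses. SAMD9L and CMPK2 had no call in any line or with any drug.

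IFI6, a small mitochondrial and endoplasmic reticulum membrane protein, rose with AZA in TLOm1 and HH. In TLOm1, IFI6 was at 7.48 CPM untreated and 13.4, 13.5 and 26.5 CPM over the AZA doses, and at 8.28 CPM untreated and 8.27, 12.6 and 12.8 CPM over the decitabine doses. In HH, IFI6 was at 8.64 CPM untreated and 10.9, 12.6 and 16.3 CPM over the AZA doses, and at 10.2 CPM untreated and 9.54, 10.8 and 12.5 CPM over the decitabine doses. The slopes were 0.54 ± 0.07 (adjusted p = 3.06e-06) and 0.30 ± 0.07 (adjusted p = 0.004), with a decitabine slope in TLOm1 of 0.25 ± 0.07 (adjusted p = 0.048). In PF382, IFI6 was at 15.8 CPM untreated and 21.1, 21.2 and 25.1 CPM over the AZA doses. Under decitabine it was at 16.2 CPM untreated and 18.9, 19.9 and 21.7 CPM there, and neither PF382 slope was called. IFI35, an interferon-induced leucine zipper protein, was the 1 member called with AZA in all lines, at 0.31 ± 0.06 (adjusted p = 0.00023) in TLOm1, 0.20 ± 0.06 (adjusted p = 0.035) in PF382 and 0.24 ± 0.06 (adjusted p = 0.0084) in HH. In TLOm1, IFI35 was at 13.2 CPM untreated and 15.7, 18 and 26.1 CPM over the AZA doses, and at 13.1 CPM untreated and 15, 14.9 and 15.5 CPM over the decitabine doses. IFI27, an interferon-induced membrane protein singled out after its values were seen, was at 1.22 CPM untreated and 1.07, 1.48 and 12.5 CPM over the AZA doses in TLOm1, so that 1 library stood apart. Its slope was 1.22 ± 0.25 (adjusted p = 0.0019), and IFI27, IFI44 and IFI44L were not called without that library.

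LGALS3BP rose in TLOm1 under both drugs and with each dose step. In TLOm1, LGALS3BP was at 2.03 CPM untreated and 7.36, 13.9 and 21.6 CPM over the AZA doses, and at 0.833 CPM untreated and 2.42, 7.92 and 8.72 CPM over the decitabine doses. The slopes were 0.98 ± 0.13 (adjusted p = 7.89e-05) and 0.998 ± 0.17 (adjusted p = 0.0046), while PF382 ran from 189 to 270.1 CPM and HH stayed at or below 0.338 CPM. XAF1 rose in TLOm1 and PF382. In TLOm1, XAF1 was at 39.5 CPM untreated and 55, 66.8 and 101 CPM over the AZA doses, and at 36 CPM untreated and 49.2, 58.6 and 63.6 CPM over the decitabine doses. In PF382, XAF1 was at 11.1 CPM untreated and 14.3, 19 and 29.6 CPM over the AZA doses, and at 10.3 CPM untreated and 11.8, 13.3 and 14 CPM over the decitabine doses. The slopes were 0.43 ± 0.06 (adjusted p = 2.41e-05) and 0.26 ± 0.06 (adjusted p = 0.02) in TLOm1 and 0.45 ± 0.07 (adjusted p = 9.57e-05) in PF382 with AZA. EPSTI1 rose in TLOm1 with AZA (0.47 ± 0.09, adjusted p = 0.00069) and in PF382 with decitabine (0.29 ± 0.09, adjusted p = 0.018), and TRIM22 and SP110 had no call.

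Across the 6 combinations of line and drug, 36 of the 45 members rose in at least 1, 13 of them in 1 only, and none in more than 4. Over all 17190 genes the shares were 33.8%, 18.1% and 0.768%. MX1 and IFITM2 rose in 4. With AZA, 17 members rose in TLOm1 and were not called as rising in either other line, against 8.56% of all genes, and 1 (IFI35) rose in all lines, against 1.4%. No member rose with decitabine in all lines, where 0.401% of genes did. A slope that was not called in a line is not thereby shown to differ from one that was.

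Whether the lines differed was tested directly. In the test of the mean effect, a climb with dose again counts as error. For the mean effect, 0 members were called for AZA and 0 for decitabine by edgeR, where 0.146% and 0.00561% of 17841 genes were called, and 8 and 7 members had an unadjusted p under 0.05, against 10.7% and 8.3% of genes. For the slope on dose rank, a test added after the values were seen, 25 of 45 members differed between lines with AZA, against 18.7% of 17190 genes, and 11 with decitabine, against 12.5%. The AZA count was 11 without TLOm1 at 500 nM, 10 of them among the 25, and 16 without untreated PF382. The decitabine count was 7 without untreated PF382, without PF382 at 25 nM or without untreated TLOm1. Dose rank aligns 50, 125 and 250 nM in HH with 125, 250 and 500 nM in the other lines, so a difference from HH mixes line and dose.

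TLOm1 minus PF382, in which the AZA doses match, gave 18 members with a steeper slope and 2 with a lower slope in TLOm1, against 5.31% and 5.13% of all genes. The first 3 by p were MX1 (2.04 ± 0.15, adjusted p = 1.85e-08), PARP9 (1.77 ± 0.19, adjusted p = 1.73e-06) and DTX3L (1.70 ± 0.17, adjusted p = 2.14e-06), and the 2 lower ones were ISG20 and IFITM2. These first 3 started from 1, 5 and 7 counts in TLOm1, against 499, 1037 and 1301 in PF382. From such a low start a small gain in CPM gives a steep log2 slope. The count of 20 became 5 without TLOm1 at 500 nM, 8 without untreated PF382 and 12 without PF382 at 500 nM. TLOm1 minus HH gave 5 higher (STAT2, IRF9, IFI27, IFI44L and EPSTI1) and 3 lower (OAS2, IFITM1 and ISG15), against 4.46% and 5.61% of genes, and 3 in all without untreated HH, without HH at 250 nM or without TLOm1 at 500 nM. PF382 minus HH gave 6, all lower in PF382 (ISG15, IFITM1, PARP9, SAMD9, OAS2 and HERC5), against 8.86% of genes in either direction, and 3 without HH at 250 nM or PF382 at 500 nM.

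Other genes of the pathway were read from lists chosen beside the members. Of 21 interferon genes 1 was detected well enough to be tested, IFNL1, a type III interferon, at 1.24 to 3.38 CPM in HH and at or below 0.201 CPM elsewhere, with no call on dose. IFNB1 was at or below 0.313 CPM in all libraries and at 0.0424 CPM in TLOm1 at 500 nM AZA. Among the receptors and kinases, TYK2 rose with AZA in TLOm1, with a slope of 0.14 ± 0.04 (adjusted p = 0.021), and IFNAR2, a chain of the type I receptor, fell, with a slope of -0.13 ± 0.03 (adjusted p = 0.0062). In HH, IFNAR2 rose with AZA (0.13 ± 0.03, adjusted p = 0.0089) and with decitabine (0.18 ± 0.03, adjusted p = 0.0011). Of 10 negative regulators, 4 fell with AZA in TLOm1, against 13.9% of all genes, among them the phosphatase PTPN6 (-0.38 ± 0.07, adjusted p = 0.00066), which rose in HH (0.39 ± 0.07, adjusted p = 0.00073).

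Of 27 other type I interferon-stimulated genes tested, 7 rose and 3 fell with AZA in TLOm1, 2 rose and 1 fell in PF382, and 9 rose and 1 fell in HH. The shares of all genes that rose and fell were 15.3% and 13.9% in TLOm1, 9.24% and 6.56% in PF382 and 10.5% and 7.25% in HH. DDX60L and DDX60, helicase-like proteins, led in TLOm1 with 1.25 ± 0.12 (adjusted p = 1.07e-07) and 0.89 ± 0.10 (adjusted p = 8.65e-07). With decitabine 1 rose in TLOm1, 6 rose and 3 fell in PF382 and 8 rose and 1 fell in HH, where 3.47% and 1.15%, 15.4% and 9.83%, and 5.45% and 2.95% of all genes rose and fell. Of 14 interferon gamma targets tested within lines, 4 rose and 3 fell with AZA in TLOm1, against the same 15.3% and 13.9% of all genes, and GBP4, a relative of GBP1, led with 1.74 ± 0.18 (adjusted p = 2.02e-07).

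Markers of other cell types were summed in the same libraries, and their part in the results was not tested. In TLOm1 with AZA the 5 epithelial markers summed to 135 to 153 CPM, against 48.7 to 81.4 CPM untreated, mostly keratin KRT8 at 86.1, 104 and 96.9 CPM over the doses against 10.3 CPM untreated, while EPCAM was at or below 0.107 CPM in TLOm1. With decitabine the epithelial sum was 85.6 to 147 CPM in TLOm1. In PF382 it was 22.3 to 43.0 CPM with AZA and 12.2 to 46.0 CPM with decitabine, against 3.58 to 5.06 CPM untreated, and in HH at most 2.66 CPM. The 9 monocyte and macrophage markers summed to 6.28 to 7.20 CPM in TLOm1 with AZA, against 4.26 to 5.20 CPM untreated, with 2 and 3 of them at 0. The 7 fibroblast and endothelial markers summed to 34.5 to 40.0 CPM with AZA and 69.6 to 73.9 CPM with decitabine in TLOm1, against 28.2 to 44.8 CPM untreated. The 6 dendritic cell markers summed to at most 0.410 CPM in TLOm1 and the 5 B cell markers to at most 0.891 CPM. In PF382 the dendritic cell markers summed to 43.4 to 67.4 CPM with AZA and 34.98 to 80.98 CPM with decitabine, against 104 to 117 CPM untreated. Of these 6 markers, 4 were at 0 in untreated PF382, 3 with AZA and 3 with decitabine. The B cell markers of PF382 summed to 19.7 to 23.0 CPM with AZA and 17.8 to 27.4 CPM with decitabine, against 10.6 to 11.8 CPM untreated. Of 11 T cell markers, 1 rose and 5 fell with AZA in TLOm1, where 15.3% and 13.9% of all genes did. Without TLOm1 at 5 nM decitabine, the library with COL1A2, 6 members were called in TLOm1 with decitabine, of which 5 were called with it.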

How the data were processed

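The authors deposited raw read counts per gene for 24 libraries, 25559 genes each, with no normalization. Their processing notes name STAR, DESeq2, limma and GRCh37.p2, without roles or versions. The labels differ on whether RNA was selected by polyA or depleted of ribosomal RNA. In 2 titles the line PF382 is spelt differently, and the cell line label was used. Library totals and untreated pairs were checked from the counts. Counts were tested with edgeR 4.0.16 in R 4.3.3 (TMM scaling, filterByExpr, robust quasi-likelihood F test, Benjamini-Hochberg adjustment over all genes tested, threshold 0.05), and all 45 members passed the filter in every fit. Pooled drug effects and slopes used the 12 libraries of a set with a block for line, and effects and slopes within lines used all 24 with a block for line and set. Slopes use dose rank 0 to 3. Changes of single libraries are on log2(CPM + 1). All intervals and limits of detection cover counting error only. The steps were tested on simulated counts.

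The members and all gene lists were chosen with earlier results of these data known. Members chosen for values by library were STAT2, IRF9, IRF7 and IRF1, and up to 6 members with the smallest adjusted p in each effect and slope. To these were added the 8 with the widest untreated difference between lines and the 4 with the highest untreated level. For many of them some lines are given only as a range over untreated and treated libraries together, or left out. Other members are given by call or range. Alternatives were DESeq2 1.42.0, its size factors, no filter, no block, other controls and leaving out each library or line. The test of slopes between lines was added after the values were seen. Promoters came from RefSeq on GRCh38.p14, and the count files hold no coordinates. Part of the list of receptors and kinases is not reported here.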

Additional observations from a re-analysis of the deposited data

Results flagged for a closer look

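The slope on dose rank was compared between the 3 lines by edgeR's quasi-likelihood test of equal slopes, and the members whose slopes differed were singled out because the same drug moved them differently in different lines. With AZA these were 25 of the 45 members, against 18.7% of all genes. The 6 with the smallest adjusted p were MX1 (1.67e-08), PARP9 (6.96e-07), DTX3L (3.32e-06), ISG15 (5.48e-05), GBP1 (0.000211) and IFITM1 (0.000247). MX1, PARP9, DTX3L and GBP1 had steeper slopes in TLOm1 than in PF382, ISG15 fell in PF382 and rose in HH, and IFITM1 rose in HH. MX1, PARP9 and DTX3L started from 1, 5 and 7 counts in untreated TLOm1, so their log2 slopes there rise from near 0. At 500 nM AZA their levels were still far higher in PF382 (40.3, 56.6 and 81 CPM) than in TLOm1 (8.4, 4.16 and 7.81 CPM).

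With decitabine 11 members differed, against 12.5% of all genes. The 6 with the smallest adjusted p were IFITM1 (0.000573), PARP9 (0.000981), ISG15 (0.00158), MX1 (0.00205), DTX3L (0.00208) and OAS2 (0.00926). IFITM1 and OAS2 rose in HH, while PARP9, MX1 and DTX3L had steeper slopes in TLOm1 than in PF382. PARP9 and MX1 stayed at or below 1.10 CPM in TLOm1 with decitabine, so their slopes rest on few counts.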

How the results depend on the processing

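Every count below is of the 45 members called, unless all genes are named. The pooled AZA effect (1 member) became 6 with DESeq2, 11 with both untreated libraries of a line as controls, and 0 with no block for line, with the doses of a line summed, or without HH, PF382 or TLOm1. Of all genes, DESeq2 called 1123 of 16554 and the fit with both untreated libraries 3123 of 15877. The pooled decitabine effect (0) became 1 with DESeq2 and 5 with both untreated libraries as controls, where 461 of 16354 and 1834 of 15700 genes were called. The effects within lines became 1 and 4 by these 2 settings in HH with AZA (0), 1 and 2 in HH with decitabine (0), 2 and 2 in PF382 with AZA (1), 2 and 4 in PF382 with decitabine (0), 7 and 12 in TLOm1 with AZA (1), and 1 and 1 in TLOm1 with decitabine (0). In that order DESeq2 called 271, 48, 470, 440, 946 and 95 of all 17841 genes. The other setting called 1047, 274, 727, 1474, 1766 and 62 of 17190 genes. Fitted on 1 set, the AZA effects in PF382 and TLOm1 each became 0. The AZA slope on rank (19) became 12 without HH and 11 without TLOm1, and the decitabine slope (11) became 3 without HH and 5 without PF382. In that order 2569 of 15641, 1660 of 15431, 971 of 15365 and 1469 of 14590 genes were called. With no filter on low counts, the decitabine slope among treated libraries became 2, the difference between lines in the AZA effect 1 and the difference between sets 3, which was 2 with DESeq2 size factors.

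Leaving out 1 library at a time gave 0 to 2 for the pooled AZA effect, 10 to 19 for its rank slope and 2 to 11 for its slope among treated libraries, and 0, 5 to 10 and 0 to 3 for decitabine. Effects within lines ran from 0 to 1 in HH with AZA, 0 to 2 in PF382 with AZA, 0 to 3 in PF382 with decitabine, 1 to 8 in TLOm1 with AZA and 0 to 1 in TLOm1 with decitabine, and the difference between lines in the AZA effect from 0 to 1. Rank slopes within lines ran from 6 to 14 and 1 to 11 in HH, 3 to 16 and 3 to 11 in PF382, and 14 to 31 and 2 to 10 in TLOm1, AZA before decitabine. Their difference between lines ran from 11 to 25 with AZA and 7 to 14 with decitabine, with 3 to 11 for TLOm1 minus HH, 5 to 22 for TLOm1 minus PF382 and 3 to 7 for PF382 minus HH. The difference between sets ran from 0 to 6. The RSAD2 slope with AZA ran from -1.04 to 3.68 in TLOm1 and from -0.78 to 3.93 for TLOm1 minus PF382, turning sign without TLOm1 at 500 nM. The cause of these shifts was not tested. Over the members chosen to be named, and only where the main fit had called them, 3169 results kept their direction and call, 350 lost the call and 2 turned. Of the 3169, 2601 came from leaving out 1 library. In the fits on all 24 libraries most of those belong to another line or set. They reach a slope mainly through the shared spread, so that agreement was largely fixed in advance. No paired analysis was possible because the replicate numbers pair no libraries, with 1 library per treated condition and untreated numbers that tell only the sets apart. The block for line, part of the fits, already sets treated against untreated libraries of the same line.

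Each condition had 1 library, so dose and library cannot be told apart, and members below 1 CPM rest on few counts.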
